A study of Mus musculus with 14 samples.

Results

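Type 2 innate lymphoid cells (ILC2s) of the mouse lung were examined for the genes that take up arginine and make polyamines. The genes described are Odc1, Oaz1, Azin1, Srm, Sms, Sat1, Slc7a1 and Slc7a2, and these 8 were found by symbol among the 53278 genes of both the count and the TPM tables. RNA-seq was available from 14 libraries in 2 experiments, each library, by the design text, from the sorted lung ILC2s of an individual female mouse (live, lineage-, CD90.2+, CD3-). In the first experiment, 8 B6 mice gave 4 unstimulated libraries and 4 libraries of ILC2s kept for 24 h in 20 ng/mL of IL-33, an alarmin of damaged epithelium. In the second, 72 h cultures with IL-33 plus IL-25 (20 ng/mL of each) were made from 3 Control mice (ControlIL7RaCre) and 3 age-matched Blimp-1-deficient mice (Blimp-1IL7RaCre), and the study's methods also name IL-2. Its general ILC2 culture method includes IL-2, but its RNA-seq methods name it for the 72 h cultures only. Whether the 24 h cultures held IL-2 is therefore open. Cre from the IL7Ra gene, which both genotypes carry, deletes the floxed Blimp-1 gene (Prdm1) in T cells, B cells and NK cells as well as in all ILCs, so the ILC2s of these mice also developed beside other lymphocytes without Blimp-1. A legend of the study instead gives sorts from 2 pooled animals for its points, so a library may not stand for 1 mouse. The unstimulated cells are described both as kept for 24 h without IL-33 and as ex vivo, so the effects of IL-33 and of culture itself cannot be told apart in the first comparison.

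Ornithine, which cells make from arginine, feeds polyamine synthesis, and ornithine decarboxylase (Odc1) turns it into putrescine, the first polyamine. Spermidine synthase (Srm) and spermine synthase (Sms) extend putrescine to spermidine and spermine, polycations that bind RNA and DNA and that proliferating cells need, while the acetyltransferase Sat1 starts their breakdown and export. Antizyme (Oaz1) binds Odc1 protein, sends it to the proteasome and slows polyamine uptake, and the antizyme inhibitor Azin1, an Odc1 relative without enzyme activity, holds antizyme back. Arginine enters through the cationic amino acid transporters Slc7a1 (CAT-1) and Slc7a2 (CAT-2). Slc7a2 is also a transporter of activated macrophages.

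Antizyme is itself a polyamine sensor, because its protein is made only when the ribosome shifts its reading frame by 1 base at an in-frame stop codon, and polyamines favour that shift. RNA levels of Oaz1 therefore do not report antizyme protein. The site is shown from the GENCODE annotation of GRCm38, chr10:80828281-80828310, plus strand, in an exon of Oaz1, with the last codon of the first frame and its stop (TCCTGA) in capitals.
Oaz1 frameshift site: ctcggtggtgcTCCTGAtgtccctcaccca
This stretch was found in 2 of the 7 annotated Oaz1 transcripts, and 3 protein-coding transcript models carry the same stretch with the T of the stop codon left out, as the shifted frame would read it.

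Promoters, from 250 bases before to 50 after a gene's start in RefSeq (GRCm38.p6), were matched for 5 of the 8 genes, as 7 promoters in all. That of Odc1, the gene that rose most, is shown with its matches to the GC box GGGCGG, on either strand, in capitals (chr12:17544623-17544922, plus strand).
Odc1 promoter: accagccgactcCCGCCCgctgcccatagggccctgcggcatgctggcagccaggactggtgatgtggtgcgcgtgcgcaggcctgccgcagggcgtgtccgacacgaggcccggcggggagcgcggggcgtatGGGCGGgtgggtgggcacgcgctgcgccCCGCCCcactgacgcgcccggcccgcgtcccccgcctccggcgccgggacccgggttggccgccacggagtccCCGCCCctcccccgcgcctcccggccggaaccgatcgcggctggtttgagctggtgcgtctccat
It is 78% G or C, and the 4 matches begin 238, 116, 88 and 15 bases before the start. A GC box was found in 4 of the 7 promoters and in 35.7% of all 32851 promoters of this length. The other letters searched on both strands were CACGTG (the E-box of Myc and related factors, 1 of 7 against 7.15% of all promoters), TTCNNNGAA (1 of 7 against 8.30%), TTC and GAA with 4 bases between them (0 of 7 against 6.95%), TGACGTCA (0 of 7 against 1.79%), the shorter form TGACG (3 of 7 against 20.8%), TATAAA (2 of 7 against 13.6%) and AGNGAAAG, the core bound by Blimp-1 (0 of 7 against 8.63%). The E-box match lay in one of the 2 promoters of Sms, at position -196 from that start (chrX:157492238-157492537, minus strand), and is in capitals here because Sms rose together with Odc1.
Sms promoter: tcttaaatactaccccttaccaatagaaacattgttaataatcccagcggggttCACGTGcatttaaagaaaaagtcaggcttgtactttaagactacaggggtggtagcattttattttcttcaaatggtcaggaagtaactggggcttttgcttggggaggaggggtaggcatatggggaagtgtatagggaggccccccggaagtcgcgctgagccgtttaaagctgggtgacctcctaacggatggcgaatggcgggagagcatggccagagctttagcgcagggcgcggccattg
These matches describe the printed windows and are not evidence of binding.

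Library depth ranged from 10470125 to 32849428 counts in the first experiment and from 13570188 to 76448945 in the second. Levels between libraries are given as counts scaled by edgeR's TMM factors to 1000000 per library (CPM), and levels between genes as TPM, which also divide by gene length. IL-33 replicate 3 had the fewest counts of its experiment. Control replicate 2 had 76.8% of its counts on 7 loci, which held 0.262% to 0.941% in the other libraries of its experiment, so its TPM of other genes are low, and 3 counts there equal 0.731 CPM, against 0.0310 to 0.0387 in the others. The log2 fold changes of the 8 genes are given with and without each of these 2 libraries. Counting limits such as these cover counting error only. None of the 10 genes of the ILC2 marker list was at 0 in any library. Prdm1 measured 75.2, 92.8 and 74.0 CPM in the Control libraries and 14.6, 11.5 and 11.4 CPM in the Blimp-1-deficient ones (log2 fold change -2.68, SE 0.15, adjusted p = 0.00441). In bulk RNA, fewer cells of a type and less RNA per cell cannot be told apart, which holds for every gene below.

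**Figure D1:**
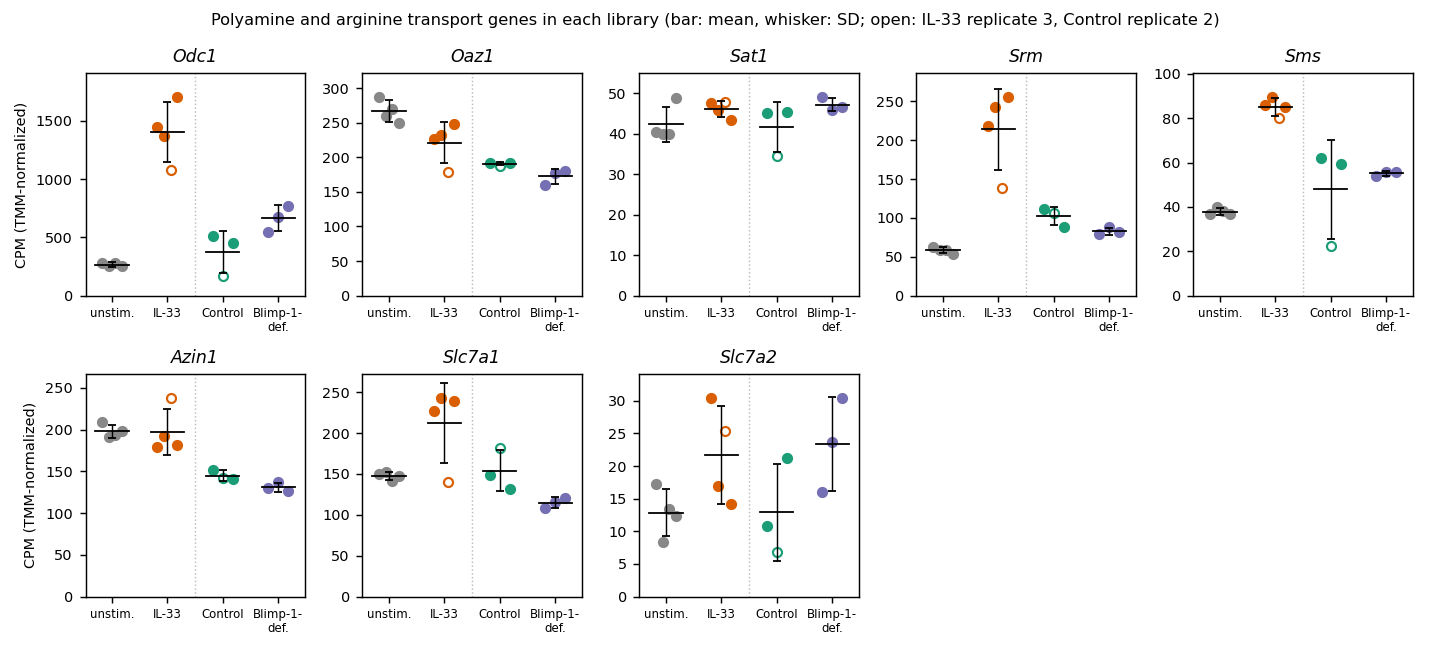
CPM (TMM-normalized counts per 1000000) of the 8 genes in each library, on axes that start at 0, with the mean (bar) and SD (whisker) of each group; open circles are IL-33 replicate 3 and Control replicate 2. Odc1 sat between 1080.0 and 1704 CPM in the 4 IL-33 libraries, all above the unstimulated libraries, and Sms sat between 79.9 and 89.5 CPM, also above them.

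Oaz1 stood above Odc1 in unstimulated ILC2s, and Odc1 stood above Oaz1 after IL-33. In unstimulated ILC2s the mean TPM of these genes fell in the order Oaz1 (361 ± 11.3), Odc1 (271 ± 15.3), Srm (126 ± 4.32), Azin1 (109.5 ± 2.47), Sat1 (52.9 ± 6.60), Slc7a1 (44.4 ± 1.78), Sms (21.8 ± 1.31) and Slc7a2 (4.84 ± 1.23; SD, n = 4 for all), and no gene's range over libraries overlapped that of its neighbour in this order. After IL-33, Odc1 was at 1135 ± 218 TPM, ahead of Srm at 370.3 ± 96.9 and Oaz1 at 239 ± 37.3 (SD, n = 4). The ranges of Srm and Oaz1 overlapped there, as did those of Slc7a1 and Sat1, and of Sat1 and Sms. Among all genes of a library ranked by TPM, Odc1 stood between places 553 and 632 in the unstimulated libraries and between 78 and 92 after IL-33.

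In Control ILC2s after 72 h, Odc1 was at 562 and 513 TPM in replicates 1 and 3, above Oaz1 at a mean of 287 ± 7.99 TPM (SD, n = 2). In Blimp-1-deficient ILC2s Odc1 was at 781 ± 98.7 TPM and Oaz1 at 271 ± 3.49 TPM (SD, n = 3), and their ranges did not overlap. By mean TPM, the order after Oaz1 was Srm, Azin1, Sat1, Slc7a1, Sms and Slc7a2 in Controls 1 and 3 and in Blimp-1-deficient ILC2s. Control replicate 2, left out of this order, had Oaz1 above Odc1 and Slc7a1 above Sat1. The 2 experiments differ in mice, cytokines and time and were normalized separately, so levels across them were not tested.

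IL-33 stimulated ILC2s had more RNA of the enzymes that make polyamines. Of the 8 genes, all with enough counts to be tested, Odc1, Srm, Sms and Slc7a1 were higher and none was lower (edgeR's quasi-likelihood test, Benjamini-Hochberg adjusted p below 0.05 over all genes tested), while 6 had an unadjusted p below 0.05, beside 43.9% of all genes. DESeq2 called 5 higher, Slc7a2 added, and 1 lower, Oaz1, beside 21.4% and 20.6% of all genes. In this comparison 32.3% of all 15466 genes tested passed, 16.2% higher and 16.1% lower. The median log2 fold change was 0.64 over the 8 genes and 0.06 over all genes. Without IL-33 replicate 3, 4 genes were higher and 1 lower, where 57.2% of all genes passed, 27.5% higher and 29.7% lower.

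Odc1 (chr12:17544794-17551505, plus strand), the first committed step, was at 281, 250.5, 283 and 251 CPM in unstimulated ILC2s and at 1447, 1372, 1080.0 and 1704 CPM after IL-33. The groups were far apart, at 5.26-fold, a log2 fold change of 2.39 (SE 0.14, adjusted p = 2.36e-05). Without replicate 3 the log2 fold change was 2.50 (SE 0.08, adjusted p = 2.46e-08). Odc1 shares 16.6% of its stretches of 75 bases with 13 other annotated genes, so a part of its reads may have been lost or gained in counting.

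Srm (chr4:148591503-148594993, plus strand), which makes spermidine, rose from 63.0, 58.6, 58.2 and 54.0 CPM to 219, 243, 139 and 256 CPM. Replicate 3 was the lowest of the stimulated libraries but still above every unstimulated one. The fold change was 3.66-fold, or 1.87 on the log2 scale (SE 0.18, adjusted p = 0.000203), and 2.03 without replicate 3 (SE 0.07).

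Sms (chrX:157443855-157492287, minus strand), which makes spermine, rose from 36.8, 39.9, 38.1 and 36.7 CPM to 86.1, 89.5, 79.9 and 84.9 CPM. The 4 stimulated libraries lay close together, well above the unstimulated ones. The fold change was 2.25-fold, or 1.17 on the log2 scale (SE 0.06, adjusted p = 1.53e-05), and 1.198 without replicate 3. Of the 75-base stretches of Sms, 16.9% also occur elsewhere, above all in its copy Sms-ps, to which 15.9 to 19.5 CPM were assigned before and 40.2 to 47.2 CPM after IL-33, so counts could be split between the pair. Summed over both, the levels were 52.6 to 59.4 CPM before and 122 to 133 CPM after IL-33.

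Neither regulator of Odc1 passed over all libraries in edgeR. Oaz1 (chr10:80826656-80829290, plus strand) measured 287, 259.8, 270.1 and 249.9 CPM in unstimulated ILC2s and 227, 232, 179 and 247 CPM after IL-33. The stimulated libraries were all below the unstimulated ones, but the log2 fold change of -0.27 (95% interval -0.51 to -0.03) missed the threshold at an adjusted p of 0.0862. Without replicate 3 it was -0.18 and passed (adjusted p = 0.0304), and Oaz1 was called lower in 7 of 16 alternatives, down to -0.61. These include library size alone and both TPM analyses, which moved the median over all genes to -0.10, -0.25 and -0.29. Azin1 (chr15:38487427-38519266, minus strand) was at 191 to 209 CPM before and 179 to 238 CPM after IL-33, and its log2 fold change of -0.00 had a 95% interval from -0.23 to 0.22. Without replicate 3 it was -0.10, and its sign changed under 9 of 16 alternatives. Sat1 (chrX:155213132-155216449, minus strand), of polyamine breakdown, was at 39.9 to 48.9 CPM before and 43.5 to 47.8 CPM after IL-33, overlapping ranges with a log2 fold change of 0.13 (95% interval -0.08 to 0.33) and 0.11 without replicate 3, whose sign turned under library size scaling and under both TPM analyses.

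Of the transporters, Slc7a1 (chr5:148327410-148399904, minus strand) measured 150.1, 152, 141 and 148 CPM in unstimulated ILC2s and 227, 243, 140.2 and 239 CPM after IL-33. Replicates 1, 2 and 4 stood above all unstimulated libraries, whereas replicate 3 lay below them. The log2 fold change was 0.52 (SE 0.16, adjusted p = 0.0416) and 0.68 without replicate 3 (SE 0.05, adjusted p = 2.34e-06), and the call was lost in 9 of 16 alternatives. Slc7a2 (chr8:40862396-40922308, plus strand) measured 17.2, 8.42, 13.3 and 12.4 CPM before and 30.4, 16.9, 25.3 and 14.2 CPM after IL-33, ranges that overlap. Its log2 fold change of 0.76 (95% interval 0.07 to 1.45) missed the threshold (adjusted p = 0.0884), and it was 0.68 without replicate 3 (adjusted p = 0.0602). It passed in 2 of 16 alternatives, DESeq2 (adjusted p = 0.0370) and the replicate block (edgeR, adjusted p = 0.0419).

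Counted by overlap alone, Odc1, Srm and Sms were higher and Oaz1 lower in every stimulated library than in every unstimulated one, 4 of the 8 genes tested. Across all genes tested 37.9% did not overlap, 17% higher and 20.9% lower.

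**Figure D2:**
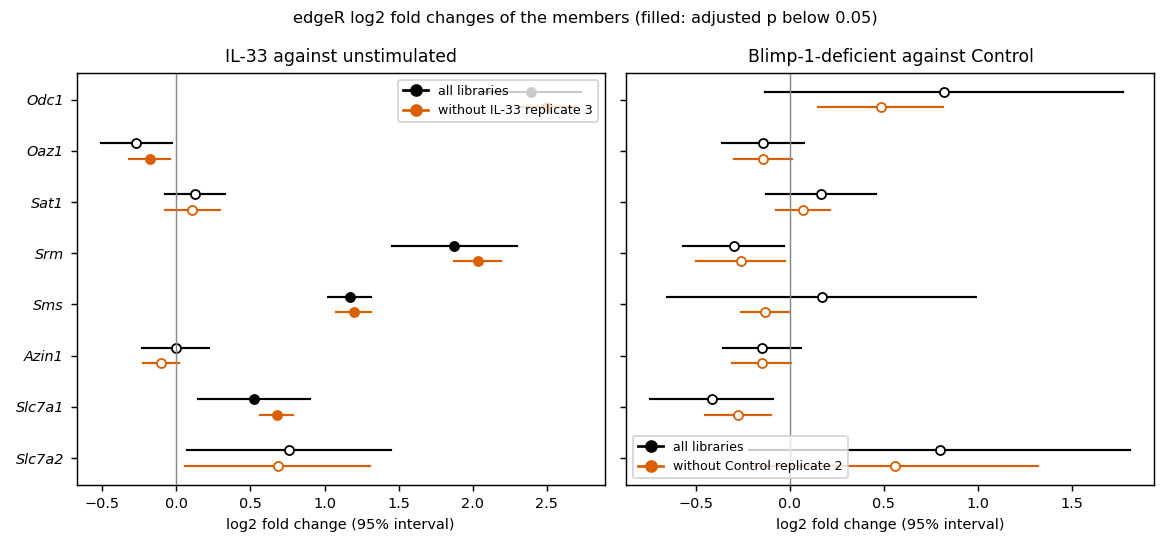
Log2 fold changes from edgeR with their 95% intervals, IL-33 against unstimulated on the left and Blimp-1-deficient against Control on the right, over all libraries (black) and without the library named in the legend (orange); filled points have an adjusted p below 0.05. Odc1, Srm and Sms lie well to the right of 0 in the stimulation, and in the Blimp-1 comparison no point is filled, with Odc1 at 0.82 over all libraries and 0.48 without Control replicate 2.

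In Blimp-1-deficient ILC2s, Odc1 stood above Control and Slc7a1 below it, and neither difference passed the test in edgeR. Over all 6 libraries none of the 8 genes passed the threshold in edgeR, while 2 had an unadjusted p below 0.05, beside 11.9% of all genes, and DESeq2 called 0. Only 0.756% of the 17335 genes tested passed in this comparison, 0.45% higher and 0.306% lower. Without Control replicate 2, none of the 8 passed in edgeR either (4 at an unadjusted p below 0.05, beside 31.2% of all genes), where 14% of all genes passed, 8.25% higher and 5.72% lower. DESeq2 without that library called Odc1 higher and Slc7a1 lower, beside 11.2% of all genes higher and 9.26% lower.

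Control libraries held 510.4, 170.3 and 447 CPM of Odc1, and Blimp-1-deficient libraries 547, 676 and 772 CPM. All Blimp-1-deficient libraries were above all Controls, and Control replicate 2 was far below the other Controls. The log2 fold change was 0.82 over all libraries (95% interval -0.14 to 1.77, adjusted p = 0.502) and 0.48 without Control replicate 2 (95% interval 0.15 to 0.81, adjusted p = 0.0641). DESeq2 without that library gave an adjusted p of 0.00618.

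Srm was at 111, 106 and 88.8 CPM in Control and, with Blimp-1 lost, at 78.9, 87.9 and 81.5 CPM, just below the Controls. Its log2 fold change was -0.30 (95% interval -0.57 to -0.03, adjusted p = 0.359) and -0.26 without Control replicate 2, and scaling by library size alone turned it to 0.21. Sms was at 62.0, 22.2 and 59.5 CPM in Control and at 53.8, 55.8 and 55.8 CPM in the Blimp-1-deficient libraries. The low value of Control replicate 2 decided its sign, since the log2 fold change was 0.17 with that library and -0.13 without it (95% interval -0.26 to -0.00, adjusted p = 0.156).

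Oaz1 was at 192, 188 and 192 CPM in Control against 160.5, 177 and 180.2 CPM with Blimp-1 lost, with a log2 fold change of -0.14 (95% interval -0.36 to 0.08), and -0.14 also without Control replicate 2. Azin1 was at 140.4 to 152 CPM and 126 to 137 CPM, with a log2 fold change of -0.15 (95% interval -0.36 to 0.06), and -0.15 also without that library. Both signs turned under library size scaling and on TPM. Sat1 was at 45.2, 34.6 and 45.4 CPM in Control against 49.1, 45.9 and 46.7 CPM, with a log2 fold change of 0.17 (95% interval -0.13 to 0.46) that came to 0.07 without Control replicate 2 (95% interval -0.07 to 0.21). None of these 3 passed, with or without Control replicate 2.

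Slc7a1 measured 148, 181 and 132 CPM in Control against 108, 115 and 121 CPM in Blimp-1-deficient ILC2s. The groups did not overlap, and the log2 fold change was -0.42 (95% interval -0.74 to -0.09, adjusted p = 0.290) and -0.28 without Control replicate 2 (adjusted p = 0.0525), with a turned sign of 0.16 under library size scaling. Slc7a2 measured 10.8, 6.82 and 21.2 CPM in Control against 16.0, 23.7 and 30.4 CPM, ranges that overlap, with a log2 fold change of 0.80 (95% interval -0.22 to 1.81) and 0.56 without Control replicate 2. In all, 6 of the 8 genes did not overlap between the genotypes, Odc1 and Sat1 higher and 4 lower, beside 22.6% of all genes tested (11.8% higher, 10.8% lower).

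Ratios between genes within a library do not depend on how the library was scaled. Unstimulated ILC2s held 0.736, 0.724, 0.787 and 0.754 Odc1 transcripts per Oaz1 transcript (ratio of TPM), and IL-33 stimulated ILC2s held 4.79, 4.44, 4.54 and 5.17. IL-33 replicate 3, which was low for both genes in CPM, was within the range of the other stimulated libraries in this ratio. In Control ILC2s the ratio was 2.00, 0.680 and 1.75, and in Blimp-1-deficient ILC2s it was 2.56, 2.87 and 3.22, with no overlap. The ratio of Odc1 to its relative Azin1 was 2.47, 2.41, 2.69 and 2.32 in unstimulated ILC2s and 14.9, 13.1, 8.34 and 17.3 after IL-33, with replicate 3 the lowest of the stimulated libraries. It was 6.18, 2.20 and 5.85 in Control and 7.75, 9.08 and 11.3 in Blimp-1-deficient ILC2s, again with no overlap. The ratio of Odc1 to Sat1 did overlap, at 9.20, 4.01 and 8.02 in Control and 9.08, 12.0 and 13.5 in Blimp-1-deficient ILC2s, after 4.17 to 5.79 in unstimulated and 18.4 to 31.9 in IL-33 stimulated ILC2s. For spermidine and spermine synthase there were 5.52 to 6.44 Srm per Sms in unstimulated ILC2s and 9.55, 10.2, 6.52 and 11.3 after IL-33, where replicate 3 was nearest to the unstimulated libraries. That ratio was 6.72 and 5.61 in Controls 1 and 3 and 5.52, 5.92 and 5.49 in Blimp-1-deficient ILC2s, ranges that overlap, with Control replicate 2 far above the rest.

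**Figure D3:**
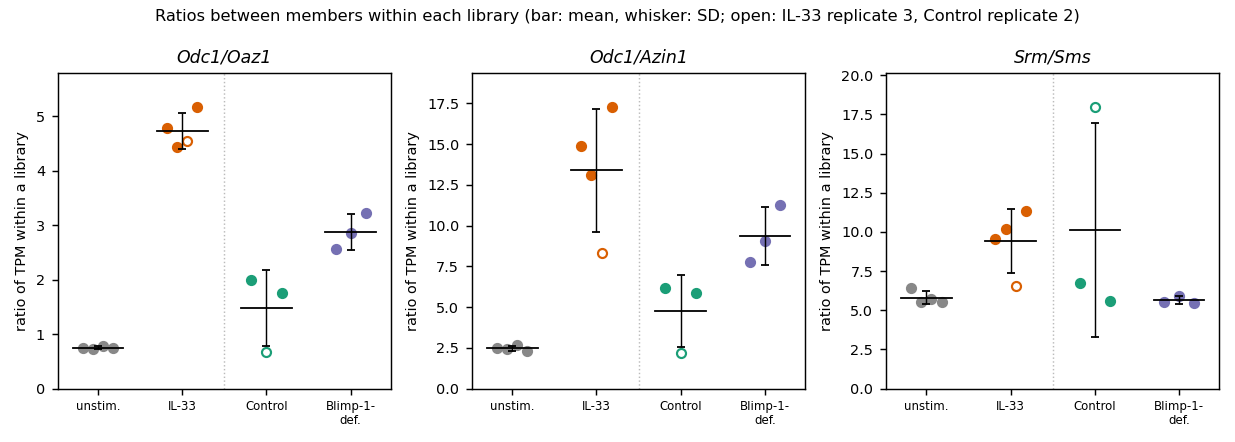
Ratios of TPM within each library for Odc1 to Oaz1, Odc1 to Azin1 and Srm to Sms, on axes that start at 0, with the mean (bar) and SD (whisker) of each group; open circles are IL-33 replicate 3 and Control replicate 2. The ratio of Odc1 to Oaz1 was 0.724 to 0.787 in unstimulated and 4.44 to 5.17 in IL-33 stimulated ILC2s, and that of Odc1 to Azin1 was 2.32 to 2.69 and 8.34 to 17.3.

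Because macrophages also express Slc7a2, a list of 10 macrophage and monocyte genes was read beside it. All 10 had a count in every library except Control replicate 2, where Itgam, Marco and Siglecf were at 0. Their summed level was 466, 198, 254 and 287 CPM in unstimulated ILC2s, 420, 192, 305 and 164 CPM after IL-33, 104, 126 and 588 CPM in Control and 90.3, 307 and 416 CPM where Blimp-1 was lost. Chil3 and Lyz2 made up 77.5% to 93.0% of it. The groups overlapped in both comparisons. In each of the 4 groups the library with the highest sum also had the most Slc7a2, while Slc7a1, Odc1 and Srm shared the top library in 1 group each and Oaz1 in 2. The full order of the libraries was the same for Slc7a2 and the sum in 2 of the 4 groups, and in Control, replicate 2 had a larger sum than replicate 1 (126 against 104 CPM) but less Slc7a2 (6.82 against 10.8 CPM). Control replicate 1 and Blimp-1-deficient replicate 1, with like sums of 104 and 90.3 CPM, measured 10.8 and 16.0 CPM of Slc7a2. Control replicate 3 and Blimp-1-deficient replicate 3, with the highest sums of their groups, measured 21.2 and 30.4 CPM. The part of such cells in the spread of Slc7a2 within groups was not tested.

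Marker levels of other cell types also differed between the groups. Summed T cell genes were at 50.7 to 64.3 CPM in the unstimulated libraries and at 14.2 to 27.7 CPM after IL-33, those of mast cells and basophils at 7.12 to 14.7 CPM and at most 0.296 CPM, and the ILC2 list itself at 7937 to 8630.1 CPM and 5384 to 7391 CPM. Of the 5 mast cell and basophil genes, 2 to 4 had at most 3 counts in each unstimulated library, and only Cpa3 was tested. The ILC2 genes did not fall alike after IL-33. Il17rb (log2 fold change -3.07) and Thy1 (-2.52) fell most, and Il1rl1, Gata3, Klrg1, Il7r and Icos lay at -0.87 to -0.36. Rora (-0.11) and Ptprc (-0.00) were not called, and Il2ra was higher (0.58). Summed B cell genes were higher after IL-33 without overlap, as were Odc1, Srm and Sms, at 9.85 to 12.1 CPM before and 14.6 to 17.8 CPM after. Nearly all of that sum was Cd79b (log2 fold change 0.53, adjusted p = 0.0168), while Cd79a and Ms4a1 were at most 0.315 CPM. Neutrophil genes were at most 0.142 CPM in the stimulation libraries except IL-33 replicate 3, at 5.42 CPM. In the second experiment, epithelial, endothelial and stromal genes summed to 171, 2235 and 229 CPM in Control and to 368, 380 and 485 CPM in Blimp-1-deficient ILC2s, so that apart from Control replicate 2 the deficient libraries were higher, as they were for Odc1. Of the genes of that list tested without Control replicate 2, Pecam1 and Pdgfra were called higher (log2 fold changes 1.15 and 1.45). Col1a1 (1.17), Cdh5 (0.28) and Epcam (-0.09) were not called. The ILC2 list summed to 6388, 5444 and 5951 CPM in Control and to 4819, 5009.7 and 5115 CPM in Blimp-1-deficient ILC2s, lower without overlap, as was Slc7a1. Its genes did not move together, since without Control replicate 2 Klrg1, Il2ra, Il1rl1, Gata3 and Ptprc had log2 fold changes of -1.01 to -0.17 and Icos, Il17rb, Thy1, Il7r and Rora of 0.36 to 0.87. The part of these in the levels of the 8 genes was not tested.

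**Figure D4:**
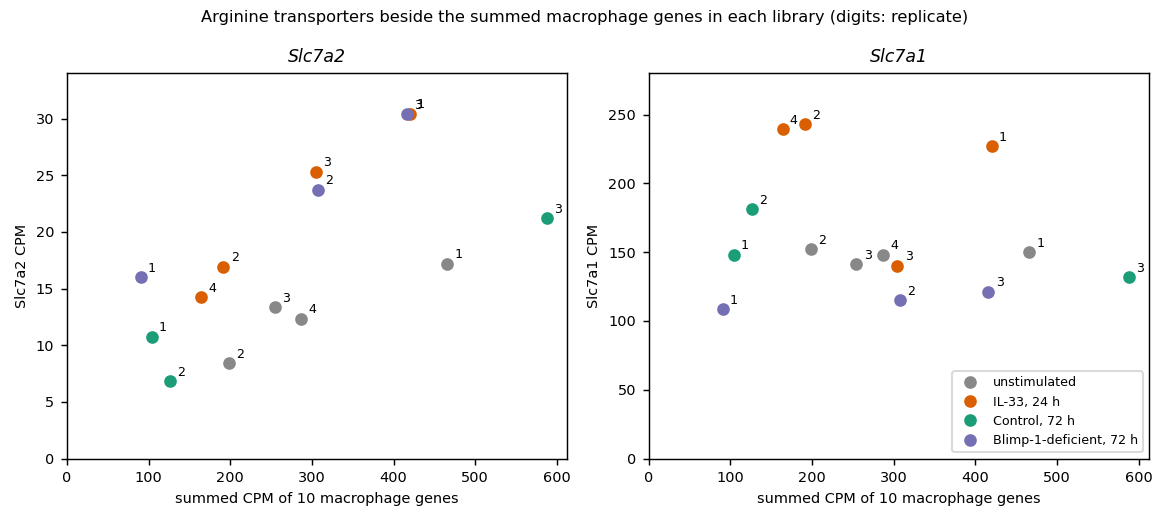
CPM of Slc7a2 (left) and Slc7a1 (right) against the summed CPM of 10 macrophage and monocyte genes in the 14 libraries, coloured by group, with the replicate number beside each point. Within each group the rightmost library is also the highest for Slc7a2 (17.2, 30.4, 21.2 and 30.4 CPM), which for Slc7a1 holds in 1 group.

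Genes around these 8 were taken from a list of 41 that supply, use or transport arginine, ornithine and polyamines, of which 40 were in the tables and 34 were tested after IL-33. Of these, 14 were higher and 3 lower, with a median log2 fold change of 0.39 beside 0.06 over all genes, and 16.2% of all genes were higher and 16.1% lower. Without IL-33 replicate 3, 17 and 8 of the 34 passed, beside 27.5% and 29.7% of all genes. Nos2 and Slc7a3 entered the test only through their stimulated libraries, since they were under the filter in the unstimulated ones, and without them 12 were higher. In the fit without IL-33 replicate 3 this held for Gamt too, which entered only through its unstimulated libraries, and without these 3 genes 15 were higher and 7 lower. All 17 genes called over all libraries kept their call and direction in that fit, and 8 of the 17 not called gained one, 3 higher and 5 lower. The count of higher genes ranged from 5 on TPM, where 6.8% of all genes were higher, to 17, and that of lower genes from 1 with no filter on low counts, beside 6.51% of all genes, to 8, over the alternatives.

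By role, the called genes and a part of the 17 not called were these. Smox, which oxidizes spermine back to spermidine, rose from 31.0, 30.4, 27.2 and 37.2 CPM to 204, 178, 134 and 229 CPM, the groups being far apart (log2 fold change 2.57, SE 0.18, adjusted p = 4.48e-05). The other oxidase, Paox, had a log2 fold change of -0.61 and was not called (adjusted p = 0.0757), but it passed without IL-33 replicate 3 (-0.50, adjusted p = 0.0345). Mtap, which salvages the methylthioadenosine that both synthases release, rose from 74.4 to 89.0 CPM to 142 to 184 CPM (log2 fold change 1.00, SE 0.10). Amd1, whose product S-adenosylmethionine decarboxylase supplies the aminopropyl group, rose from 59.3 to 65.7 CPM to 79.3 to 84.1 CPM (log2 fold change 0.38, SE 0.06), though 72.5% of its 75-base stretches are shared with copies such as Amd2. Mat2a, which makes S-adenosylmethionine, rose from 208 to 260.0 CPM to 292 to 322 CPM (log2 fold change 0.40, SE 0.08). Its regulatory subunit Mat2b (-0.09) and Amd2 (0.28) were not called. The known use of spermidine in hypusination, which activates the translation factor eIF5A, was represented by Eif5a, up from 694 to 840.3 CPM to 1313 to 1770.3 CPM (log2 fold change 1.01, SE 0.12), and by the first enzyme Dhps, up from 21.8 to 23.6 CPM to 34.3 to 54.3 CPM (log2 fold change 1.05, SE 0.14), while Dohh (0.43), the enzyme after Dhps, and Eif5a2 (0.17) were not called. Dohh passed without IL-33 replicate 3 (0.69, adjusted p = 1.49e-05).

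On the side of ornithine and proline, Oat, Pycr1 and Prodh rose, with log2 fold changes of 0.45, 1.35 and 1.26, of which that of Prodh was 0.82 without IL-33 replicate 3. Slc25a15, which carries ornithine into mitochondria, fell from 13.5 to 16.4 CPM to 6.60 to 10.7 CPM (log2 fold change -0.81, SE 0.18). Nos2, the inducible nitric oxide synthase that uses arginine, had 0, 3, 0 and 0 counts in the unstimulated libraries and 71, 77, 7 and 15 after IL-33, a mean level at least 14.7-fold higher than the mean that 3 counts per library give. It remained low, at 0.531 to 2.49 CPM. Gatm and Nos1, which were not called, measured 35.2 and 15.6 CPM in IL-33 replicate 3 and at most 2.43 and 0.637 CPM in the other libraries of that experiment. The other called genes were Asl, Slc7a3, Slc7a6 and the polyamine transporter Atp13a3 among the higher, and Slc7a7 and Gamt among the lower. The call of Atp13a3 was lost in 7 alternatives and its sign turned to -0.03 on TPM, Slc7a3 had at most 25 counts in a library, and the calls of Asl, Slc7a6, Prodh, Slc7a7 and Gamt were each lost in 8 to 10 alternatives, that of Mat2a in 4 and those of Amd1 and Oat in 2 each.

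In the Blimp-1 comparison none of 35 tested genes of the list passed over all 6 libraries in edgeR, with 7 at an unadjusted p below 0.05, beside 11.9% of all genes, and 2 called higher and 4 lower by DESeq2, beside 3.36% and 2.72% of all genes. Without Control replicate 2, 4 were higher and 7 lower of 36 tested, beside 8.25% and 5.72% of all genes, with a median log2 fold change of -0.12 beside 0.01 over all genes. Slc3a2, the heavy chain that light chains such as Slc7a6 and Slc7a7 pair with, was at 272, 218 and 295 CPM in Control against 163, 165 and 173 CPM (log2 fold change -0.75 without Control replicate 2, SE 0.06, adjusted p = 0.00125). Atp13a3 was at 615, 572 and 592 CPM against 346, 404 and 360.2 CPM (log2 fold change -0.70, SE 0.08, adjusted p = 0.00322), and its relative Atp13a2, which exports polyamines from lysosomes, at 78.9, 87.2 and 83.0 CPM against 59.2, 56.1 and 60.0 CPM (log2 fold change -0.46, SE 0.06, adjusted p = 0.00416). In these 3 genes Control replicate 2 lay on the side of its group in CPM, while on TPM over all libraries their signs turned, and that of Atp13a2 also with library size alone. Nos2 was higher, at 2.13, 0.244 and 1.75 CPM in Control against 5.96, 5.04 and 5.85 CPM (log2 fold change 1.54, SE 0.16, adjusted p = 0.00247), as were Azin2, Ddah1 and Amd2. Ddah1 was at 8.94, 42.4 and 9.39 CPM in Control against 13.0, 14.6 and 17.7 CPM, so Control replicate 2 decided its sign, with a log2 fold change of -0.32 over all libraries and 0.73 without that one (adjusted p = 0.0144). Azin2 was at 3.27, 7.06 and 2.43 CPM in Control against 5.74, 4.48 and 4.39 CPM, and its call too rests on leaving out Control replicate 2, with a log2 fold change of 0.28 over all libraries (adjusted p = 0.849) and 0.78 without it (adjusted p = 0.0445). Amd1 was lower and Amd2 higher, with log2 fold changes of -0.33 and 1.68 without Control replicate 2, although Amd1 turned over all libraries with library size alone and on TPM, and these copies share most of their sequence, so reads could be split between them. Aldh18a1, Dohh and Slc25a15 were the other lower genes, and over all libraries their signs turned with library size alone and on TPM.

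**Figure D5:**
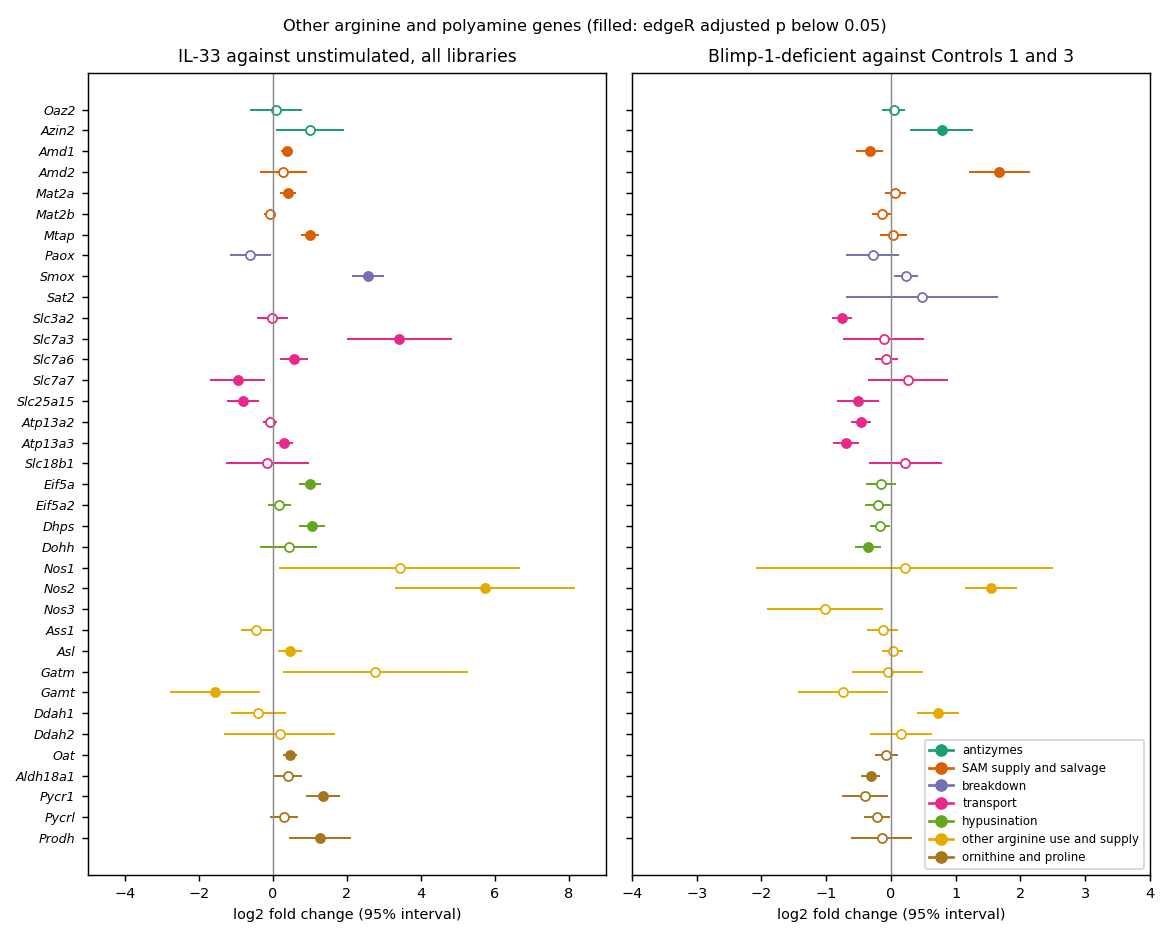
Log2 fold changes with 95% intervals of the other arginine and polyamine genes that were tested, coloured by role, for IL-33 against unstimulated over all libraries (left) and Blimp-1-deficient against Controls 1 and 3 (right); filled points have an edgeR adjusted p below 0.05. On the left 14 filled points lie above 0 and 3 below, and on the right 4 lie above and 7 below.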

How the data were processed

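Sorted ILC2s of the mouse lung had been profiled by RNA-seq. Per the study's methods, adaptors were removed (cutadapt), alignment was to GRCm38 (HISAT2) and Subread gave reads per gene; the authors deposited a table of raw counts and one of TPM for each experiment. The TPM of the authors were used for levels between genes and for ratios.

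The deposited counts were fitted in R 4.3.3 by edgeR 4.0.16 (TMM factors, filterByExpr, quasi-likelihood test, two-sided), fitted over all genes of 1 experiment with no covariate, and p-values were adjusted by Benjamini-Hochberg over all genes tested (threshold 0.05). CPM are TMM-normalized counts per 1000000. The scripts were tested on simulated data. Coordinates, shared stretches of 75 bases and the Oaz1 site come from GENCODE on GRCm38, whose exon lengths equal the deposited lengths for 8 of 8 genes, and promoters come from RefSeq. Python 3.11 with pandas 2.3.3 and matplotlib 3.10.9 drew the figures.

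The 8 genes, the list of 41 and the alternatives were chosen with earlier results of these data known. Named were the 8 genes, genes of the list past the threshold in 1 of the comparisons or partners of a member, Prdm1, the 7 loci as a sum and copies of members. The alternatives were DESeq2 1.42.0, its size factors in edgeR, library size alone, the low-count filter dropped or set to a mean count of 50, limma 3.58.1 on log2(TPM + 1) or log2(TPM + 0.1) where the mean TPM reached 1, a block for the replicate number, leaving out each library, DESeq2 without Control replicate 2, and removal of 7 loci. No pair of libraries agreed within sampling noise, and by the design text same-numbered libraries came from different mice. Some genes of the group and of the list are not reported here.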

Additional observations from a re-analysis of the deposited data

Results flagged for a closer look

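Of 16 groups of 4 libraries examined for a single library far from the others by Dixon's ratio, 2 stood out, and chance gives about 1 in 20. Sat1 measured 48.9 CPM in unstimulated replicate 4, while the other unstimulated libraries lay at 39.9 to 40.5 CPM. Slc7a1 measured 140.2 CPM in IL-33 stimulated replicate 3, while the other stimulated libraries lay at 227 to 243 CPM, and this library also had the fewest counts of its experiment. The cause of neither was tested.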

How the results depend on the processing

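Over the 32 genes of the group and the list named after IL-33, 392 of 500 alternative values kept their direction and their side of the threshold, 67 lost significance, 21 gained it and 20 changed sign, 11 of these under library size alone or on TPM. In the Blimp-1 comparison these numbers were 234, 0, 30 and 40 of 304 values for 19 genes, with 34 of the 40 sign changes under those scalings, which moved the median of all genes, so they do not measure how stable these genes are. The calls of Odc1, Srm and Sms after IL-33 held in all 16 alternatives.

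Of the 8 genes, 0 were lower after IL-33 in edgeR, and 1 was under DESeq2, library size alone or a mean count of at least 50, and 2 under either limma analysis of TPM; leaving out 1 library gave 0 to 1, with 1 without unstimulated replicate 4 or IL-33 replicate 3. Of the list of 41, the 14 higher genes became 5 under both TPM analyses (6.8% and 6.77% of all genes), 9 with no filter on low counts (5.91%) and 10 to 17 when 1 library was left out (11.8% to 27.5%), and the 3 lower genes became 5 under DESeq2 (20.6%), 7 under library size alone (23.9%), 7 under both TPM analyses (30.7% and 30%), 1 with no filter on low counts (6.51%), and 1 to 8 when 1 library was left out (11.6% to 29.7%), the 8 without IL-33 replicate 3. In the Blimp-1 comparison, DESeq2 gave 2 higher and 4 lower of the list; a mean count of at least 50 gave 2 lower of the list; leaving out 1 library gave 0 of the 8, and 0 to 4 higher and 0 to 7 lower of the list, the highest counts without Control replicate 2; and DESeq2 without that library gave 1 higher and 1 lower of the 8 and 5 higher and 7 lower of the list.

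Signs turned after IL-33 for Azin1 (0.0174 with DESeq2, 0.0186 with its size factors, 0.00803 with a mean count of at least 50, and 0.10, 0.04, 0.05, 0.04, 0.00 and 0.03 when unstimulated replicates 1, 2 and 4 and IL-33 replicates 1, 2 and 4 were left out), for Sat1 (-0.0336 with library size alone, and -0.20 and -0.20 on TPM) and, on log2(TPM + 1) and log2(TPM + 0.1), for Atp13a3 (-0.0278 and -0.0280), Amd2 (-0.0224 and -0.0417), Dohh (-0.0375 and -0.0445) and Eif5a2 (-0.150 and -0.162). In the Blimp-1 comparison, library size alone gave 0.34 for Oaz1, 0.21 for Srm, 0.33 for Azin1, 0.16 for Slc7a1, 0.17 for Amd1, 0.0062 for Atp13a2, 0.726 for Ddah1, 0.164 for Aldh18a1, 0.164 for Dohh and 0.0179 for Slc25a15. Limma on log2(TPM + 1) gave 1.59 for Oaz1, 1.43 for Srm, 1.48 for Azin1, 1.17 for Slc7a1, 1.09 for Slc3a2, 1.04 for Atp13a3, 1.06 for Atp13a2, 1.24 for Amd1, 1.45 for Ddah1, 1.29 for Aldh18a1, 1.25 for Dohh and 0.511 for Slc25a15, and on log2(TPM + 0.1) 1.63, 1.48, 1.62, 1.35, 1.14, 1.09, 1.25, 1.48, 1.72, 1.43, 1.51 and 1.176. When 1 library was left out, Sms ranged from -0.13 (without Control replicate 2; -0.14 with DESeq2) to 0.395, Ddah1 from -0.681 (without Control replicate 1) to 0.731 (without Control replicate 2; 0.727 with DESeq2, and 0.0207 with the replicate block) and Azin2 from -0.00882 (without Control replicate 3) to 0.783 (without Control replicate 2). The scalings shifted the median over all genes from -0.02 to 0.45 with library size alone and to 1.28 and 1.69 on TPM in the Blimp-1 comparison, and from 0.06 to -0.10, -0.25 and -0.29 after IL-33, and values are to be read against those medians.

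With the replicate number as a block, 4 of the 8 genes were higher and 0 lower after IL-33, and 11 and 2 of the list, beside 11.7% and 12.3% of all genes, and in the Blimp-1 comparison 0 of all 17335 genes passed (7.96% at an unadjusted p below 0.05). The 4 after IL-33 were Odc1, Srm, Sms and Slc7a2, so Slc7a1 lost its call there. By the design text the numbers do not pair the mice, and the correlations of deviations of same-numbered libraries were -0.13, 0.22, 0.31 and 0.17 after IL-33 and -0.17, -0.14 and 0.18 in the Blimp-1 experiment.

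Depth limits Nos2 and Slc7a3, which had few counts. In Control replicate 2, 3 counts equal 0.731 CPM, and genes under that level cannot be resolved there.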
